A study of Mus musculus with 2 samples.

Results

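The genes described here are the nuclear-encoded subunits of the mitochondrial respiratory chain and ATP synthase, followed by complex through the cell classes of 2 mouse liver libraries. They were chosen by symbol alone: Nduf genes of the a, b, c, s and v series, Sdha to Sdhd, and the Uqcr, Cox4 to Cox8 and Atp5 genes, without pseudogenes ending in -ps and without the Ndufaf assembly factors. The rule took 84 of 32285 annotated features: 35 of complex I, 4 of complex II, 8 of complex III, 20 of complex IV and 17 of complex V. Ndufa4 and Ndufa4l2 were counted with complex IV, where the NDUFA4 protein is now placed. Single cells were prepared by collagenase digestion from the liver non-parenchymal fraction of 5-month-old male mice on a standard chow diet, with no drug or special diet, and were profiled with the 10x v3 droplet assay, which counts molecules (unique molecular identifiers, UMIs) at the 3′ end of transcripts. The Hep-ADKTg mice overexpressed adenosine kinase in hepatocytes from the albumin promoter, and the Hep-ADKWT mice were their genotype controls. There was 1 library per genotype. The titles name a mouse and the protocols mice, and neither says whether a library came from 1 mouse or a pool. No test between genotypes was therefore possible: intervals below are 95% and cover counting error only, not differences between mice or preparations.

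Complexes I and II take electrons from NADH and succinate, complex III passes them through cytochrome c to complex IV, which reduces oxygen, and complexes I, III and IV pump the protons whose return through complex V, the ATP synthase, makes ATP. A few subunits of complexes I, III, IV and V are encoded in mitochondrial DNA. All others, with the whole of complex II, come from nuclear genes whose transcripts are polyadenylated and translated in the cytosol. Hepatocytes are rich in mitochondria, and several subunits exist as paralogous isoforms that differ between tissues, such as the liver and the heart or muscle forms of some complex IV subunits.

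The libraries held 15663 and 17462 barcodes and 97135016 and 96481752 UMIs, of which 12478 and 14445 cells were kept, with medians of 4807 and 2783 UMIs per cell. Pairs of values are given in the order Hep-ADKWT, Hep-ADKTg throughout. The libraries shared 88 barcode sequences, 58 of them among kept cells. Cells were clustered without the members or mitochondrially encoded genes, and clusters were named "X-like" from marker lists. In all 13 named classes with at least 50 cells per library every marker of the class's own list was detected in both libraries. As the names came from these lists, this is no independent check of them. Although the preparation is labelled non-parenchymal, hepatocyte-like cells numbered 181 and 3616. Adk, the overexpressed gene, was at 460.5 CPM (UMIs per 1000000 UMIs of the class; 438 to 484) and 528 CPM (520.1 to 535) in them. An unnamed cluster, cluster 0, described below, held more Adk, at 988 and 1010 CPM. Other named classes held less: 21.4 and 72.5 CPM in T, NK or ILC lymphocyte-like cells and 26.2 and 79.3 in B-cell-like cells. In fibroblast or mesothelial-like cells Adk did not rise, with 119 and 112 CPM. Plasmacytoid dendritic-like cells also held like levels, with 114 CPM (104 to 125) and 115 CPM (96.0 to 137). As neither labels nor files give the transgene's 3′ sequence, these UMIs need not count its transcripts. Hepatocyte transcripts (30 genes such as Alb and Apoa1) made up 1.95% of kept UMIs in Hep-ADKWT and 13.7% in Hep-ADKTg, and all 30 were higher in Hep-ADKTg in each of the 10 other named classes with at least 75 cells per library, a difference given again below beside the comparisons of genotypes. The T, NK or ILC lymphocyte-like, B-cell-like and LSEC-like (liver sinusoidal endothelial) classes were held mostly by different clusters in each library: clusters 6, 7, 15, 16 and 17, cluster 3, and clusters 8 and 19 in Hep-ADKWT, against clusters 2 and 10, cluster 5, and clusters 4 and 11 in Hep-ADKTg.

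All 5 complexes were represented by more RNA in hepatocyte-like cells than in any other named class, and by least in erythroid-like cells. Summed over members, hepatocyte-like cells gave 3.05% (3.03 to 3.07) and 3.54% (3.53 to 3.54) of their UMIs to the 84 genes. Cycling-like cells followed with 2.47% and 2.66%, then plasmacytoid dendritic (pDC-like) cells with 2.03% and 2.40%, monocyte-like cells with 2.01% and 2.27% and T, NK or ILC lymphocyte-like cells with 1.89% and 2.07%. The middle of the order was closely packed. Vascular endothelial-like, Kupffer-like and fibroblast or mesothelial-like cells lay between 1.63% and 1.66% in Hep-ADKWT with overlapping counting intervals, and B-cell-like and LSEC-like cells overlapped at 1.53% and 1.53%. Neutrophil-like cells (1.23% and 1.56%) and erythroid-like cells (0.377% and 0.456%) were at the bottom, with plasma-cell-like cells (1.56% and 1.29%) below neutrophil-like cells in Hep-ADKTg only. In erythroid-like cells the 8 erythroid markers, haemoglobins among them, summed to 805434 and 842509 CPM, so the members shared a small remainder.

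**Figure D1:**
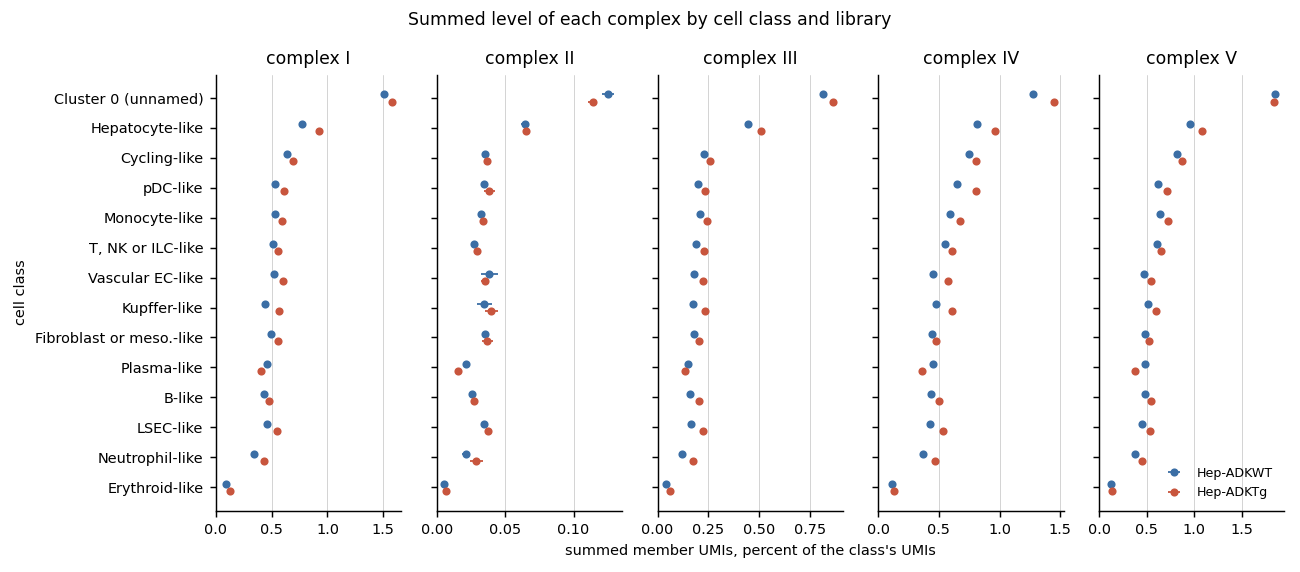
Summed UMIs of the members of each complex as a percentage of all UMIs of a cell class (x axes, one panel per complex, linear from 0), for 14 classes with at least 50 cells in each library (y axis), with points for Hep-ADKWT (blue) and Hep-ADKTg (red) and 95% Clopper-Pearson bars. Cluster 0 and hepatocyte-like cells lie farthest right in every panel and erythroid-like cells farthest left.

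Complex II gave fewest of these molecules in each of the 14 classes, and complex V most in hepatocyte-like cells. There the sums were 0.955% and 1.08% for complex V, 0.816% and 0.959% for complex IV, 0.771% and 0.927% for complex I, 0.444% and 0.506% for complex III and 0.0643% and 0.0653% for the 4 genes of complex II. The order of the other complexes was not the same in every class: in LSEC-like cells complex I gave 0.456% and 0.549%, complex V 0.449% and 0.536% and complex IV 0.424% and 0.533%. Of the 84 members, 81 had at least 50 UMIs over all kept cells. Within complexes the summed levels ranged from Ndufs1, a core iron-sulfur subunit, with 36.02 and 45.2 CPM to the accessory subunit Ndufa13 with 309 and 456 in complex I. In complex II they ran from the membrane anchor Sdhd (50.6 and 72.4 CPM) to the flavoprotein Sdha (107 and 191 CPM). In complex III the ends were the core protein Uqcrc2 (101 and 111 CPM) and the small ubiquinone-binding subunit Uqcrq (391 and 1129 CPM). Complex IV ran from Cox7b2, with no UMI in either library, to Cox4i1 (689 and 1019 CPM). Complex V ran from the gamma subunit Atp5c1 (232 and 269 CPM) to the epsilon subunit Atp5e (758 and 1121 CPM). As the assay reads 3′ ends, 1 UMI stands for 1 captured molecule whatever the transcript's length, and these are orders of captured molecules.

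Among the named classes most members were highest in hepatocyte-like cells, and the exceptions came from several complexes. With the unnamed cluster 0, described below, included, 69 of the 84 members were highest in it in both libraries. Of 79 members with at least 200 UMIs, 46 were highest among the 13 named classes in hepatocyte-like cells in both libraries, 11 in cycling-like cells, 2 in pDC-like cells (Cox6a2 and Ndufs8) and 75 were lowest in erythroid-like cells. The same counts over all features are not given here, so these are not read as particular to the members. Erythroid markers took most UMIs of erythroid-like cells, as given above. Uqcrh, the hinge protein of complex III, was the 1 member highest in lymphocyte-like cells among the named classes in both libraries. It was at 726 and 776 CPM there, 665 and 701 in hepatocyte-like cells and 1034 and 1058 in cluster 0. Ndufa8, an accessory subunit of complex I, was highest in vascular endothelial-like cells, with 398 CPM (341 to 462) and 395 CPM (362 to 430.2), against 218 and 171 CPM in LSEC-like cells and 154 and 177 in hepatocyte-like cells. Cluster 0 had 386 and 389 CPM of Ndufa8, with overlapping intervals. Cox7a2l, which encodes the respiratory supercomplex factor SCAF1, was highest in monocyte-like cells (423 and 407 CPM), with B-cell-like (392 and 372) and lymphocyte-like cells (391 and 369.9) close below.

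**Figure D2:**
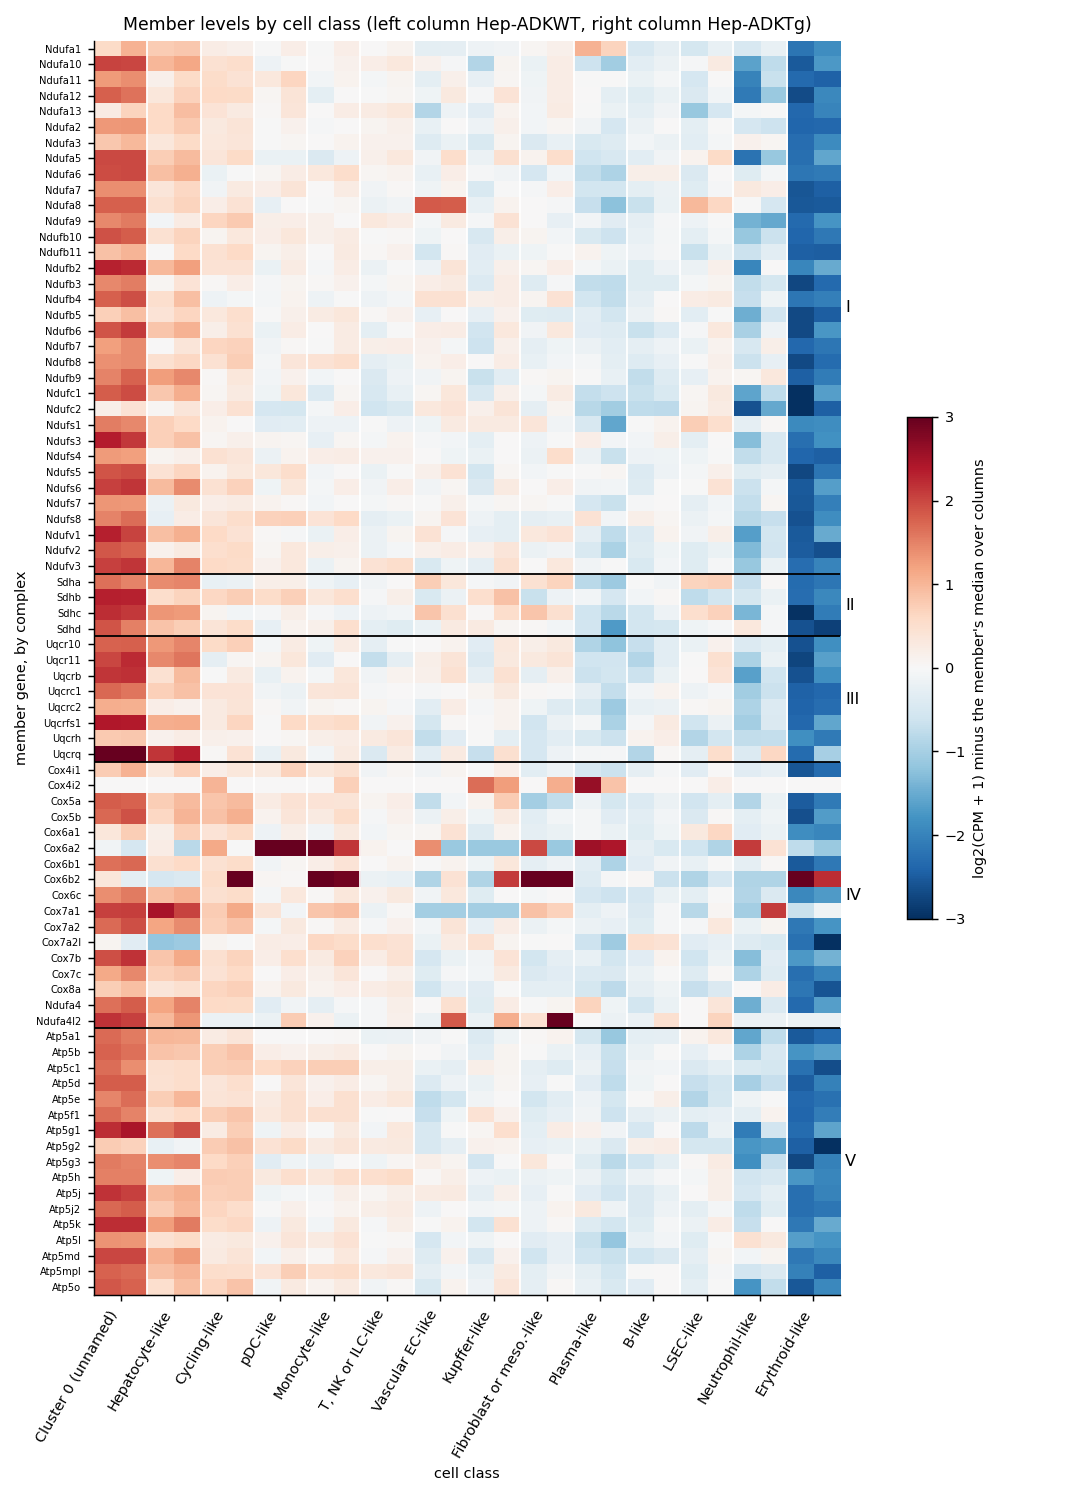
Levels of 80 members with at least 50 UMIs (rows, grouped by complex I to V) in 14 cell classes (column pairs, Hep-ADKWT left and Hep-ADKTg right), coloured by log2(CPM + 1) minus the member's own median over the columns. Most rows are red in cluster 0 and hepatocyte-like cells and blue in erythroid-like cells, while Cox6a2, Cox7a2l, Ndufa8 and Atp5g2 break this pattern.

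Set against lymphocyte-like cells, the most numerous named class of the Hep-ADKWT library, hepatocyte-like cells held higher levels of most members, led by complexes II and III. Of 77 members with at least 50 UMIs, 68 were higher in hepatocyte-like cells in both libraries, against 29.8% of all features tested, and 20 were at least 2-fold higher in both, against 18%. The median log2 ratio of the members was 0.65 and 0.74, and that of all features -0.95 and -0.82. By complex the median log2 ratios were 1.32 and 1.26 for complex II, 0.97 and 0.94 for complex III, 0.65 and 0.67 for complex IV, 0.60 and 0.66 for complex I and 0.59 and 0.73 for complex V.

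Apart from Cox7a1, which had few UMIs, Uqcrq stood farthest apart: 1464 CPM (1423 to 1505) and 1707 CPM (1693 to 1721) in hepatocyte-like cells against 247 CPM (241 to 253) and 393 CPM (381 to 404) in lymphocyte-like cells, a log2 ratio of 2.57 and 2.12. Its complex III partner Uqcr11 was at 824 and 912 CPM against 183 and 249, a log2 ratio of 2.17 and 1.87. The iron-sulfur Rieske protein Uqcrfs1, a redox-active subunit of complex III, had a log2 ratio of 1.21 and 0.995 and the core protein Uqcrc2 0.13 and 0.16. Members of 1 complex thus differed widely in how far they separated the classes. In complex II, Sdha was at 263 and 272 CPM against 91.1 and 98.6, the membrane anchor Sdhc at 154 and 149.5 against 54.8 and 57.4, and Sdhd at 96.1 and 89.3 against 43.2 and 40.7. In complex V, Atp5g1 led with 845 and 1026 CPM against 252 and 334, followed by Atp5g3 with 561 and 586 against 196 and 220.4. Cox7a2l went the other way: 123 CPM (111 to 135) and 128 CPM (124 to 132) in hepatocyte-like cells against 391 CPM (383 to 398) and 369.9 CPM (359 to 381) in lymphocyte-like cells. It was the 1 member at least 2-fold lower in both libraries (log2 ratio -1.67 and -1.53), against 43.6% of all features.

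Neutrophil-like cells lay below monocyte-like cells, the other large myeloid class, for most members. Of 76 members, 64 were lower in both libraries, against 61.3% of all features, and 12 at least 2-fold lower, against 30.1%. In the other direction 1 was higher in both (Ndufb9, an accessory subunit of complex I, named after its values were seen), against 26.6%. The median log2 ratio was -0.93 in Hep-ADKWT and -0.62 in Hep-ADKTg, with -0.57 and -0.59 for all features, and hepatocyte transcripts took 0.894% and 5.17% of UMIs in neutrophil-like and 0.386% and 1.55% in monocyte-like cells. The share of members past 2-fold was thus below that of all features, while the median was lower than theirs in Hep-ADKWT and near it in Hep-ADKTg. Atp5g2 was among the members farthest apart, at 111 and 118 CPM in neutrophil-like and 449.5 and 488 in monocyte-like cells, while Cox8a was at 747 and 859 CPM in the former and 798 and 843 in the latter. LSEC-like cells differed from lymphocyte-like cells by complex: 26 of 76 members were higher and 45 lower in both libraries, where 59.9% of all features were higher and 32.7% lower. Among members 0 were at least 2-fold apart in both libraries. Of all features 27.8% were at least 2-fold higher in both libraries and 12.9% at least 2-fold lower in both. Complex II had the highest median there (0.42 and 0.53) and complexes IV and V the lowest in Hep-ADKWT (-0.39 and -0.34). Sdha was at 156 and 160.3 CPM in LSEC-like cells against 91.1 and 98.6 in lymphocyte-like cells. Ndufa13 was at 142 and 218 CPM against 369.5 and 396.

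The highest member shares of the data set belonged to cluster 0, an unnamed cluster of 1340 and 1895 low-depth barcodes led by hepatocyte genes such as Rgn, Akr1c6 and Gsta3. Members made up 5.57% (5.54 to 5.59) and 5.84% (5.81 to 5.86) of its UMIs. All 12 hepatocyte markers were detected in it in both libraries, at summed levels of 31659.6 and 40979.6 CPM, below the 89443 and 80395 CPM of hepatocyte-like cells, but none was among its 10 leading genes, so it was not called hepatocyte-like. Against hepatocyte-like cells 74 of 77 members were higher in both libraries (64.6% of all features) and 23 at least 2-fold (14.2%). Uqcrq reached 2735 CPM (2676 to 2795) and 2962 CPM (2908 to 3017) in cluster 0, Atp5e 1947 and 2255 CPM and Sdhb, the iron-sulfur subunit of complex II (named after its values were seen), 456 and 448 against 129.9 and 142 in hepatocyte-like cells. Cox7a2l was at 294 and 219 CPM against 123 and 128.

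Nuclear-encoded and mitochondrially encoded subunit RNA stood in another proportion in cluster 0 than elsewhere. Transcripts encoded in mitochondrial DNA made up 1.26% and 1.55% of the cluster's UMIs, against 15.1% and 13.05% in hepatocyte-like cells, 4.17% and 3.43% in lymphocyte-like and 5.08% and 4.25% in B-cell-like cells. Per member UMI there were 0.227 and 0.266 mitochondrial UMIs in cluster 0, 4.95 and 3.69 in hepatocyte-like cells, 2.21 and 1.66 in lymphocyte-like cells and 1.05 and 0.900 in neutrophil-like cells. Cluster 0 was the lowest of the 14 classes in this ratio in both libraries and hepatocyte-like cells the highest. The hepatocyte-like class itself joined deep and shallow barcodes: cluster 9, with medians of 43382 and 32606 UMIs per cell, gave 3.0% and 3.49% of its UMIs to members and 15.8% and 13.7% to mitochondrial genes. Cluster 1, with medians of 671 and 705, gave 3.68% and 4.56% to members and 3.02% and 3.06% to mitochondrial genes. Cluster 0 was deeper (medians of 1276 and 1439) than cluster 1, with the higher member share and the lower mitochondrial share. The unnamed cluster 31, whose best match was also hepatocyte (77 cells of Hep-ADKTg, median 3474), gave 1.001% to members and 4.004% to mitochondrial genes. The part of depth in these shares was not tested.

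Subunit c of the ATP synthase, which forms the rotating proton ring, is encoded by Atp5g1 (chr11:96068852-96075670, minus strand), Atp5g2 (chr15:102662864-102672352, minus strand) and Atp5g3 (chr2:73908447-73911326, minus strand; GENCODE M21, GRCm38), whose precursors differ in their import peptides but give the same mature protein. The 3 genes were used in different proportions by cell class. Of subunit c UMIs, Atp5g1 gave 48.98% (47.7 to 50.3) and 52.3% (51.9 to 52.7) in hepatocyte-like cells and Atp5g2 18.5% (17.5 to 19.5) and 17.8% (17.5 to 18.1). In lymphocyte-like cells the order was reversed, with Atp5g1 at 28.1% (27.5 to 28.6) and 32.9% (32.1 to 33.8) and Atp5g2 at 50.1% (49.5 to 50.7) and 45.3% (44.4 to 46.2). Atp5g2 was also the leading gene in B-cell-like (55.9% and 49.7%), pDC-like (54.9% and 52.2%) and monocyte-like cells (49.8% and 47.4%). LSEC-like and vascular endothelial-like cells held the highest Atp5g3 shares in Hep-ADKWT, 34.5% and 34.3%, with fibroblast or mesothelial-like cells at 33.6% and hepatocyte-like cells at 32.5%, against 18.9% in B-cell-like cells. In level, outside neutrophil-like and erythroid-like cells, Atp5g2 ranged from 259 to 689.6 CPM over the named classes with at least 50 cells and Atp5g1 from 156 to 1026 CPM, highest in hepatocyte-like cells.

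The Atp5g1 share was higher in Hep-ADKTg than in Hep-ADKWT in all 13 named classes with at least 50 cells per library. The counting intervals did not meet in 8 of them and overlapped in Kupffer-like, monocyte-like, pDC-like, plasma-cell-like and vascular endothelial-like cells. The widest gaps were in erythroid-like (35.1% and 50%) and neutrophil-like cells (26.7% and 41.9%), where hepatocyte transcripts took 0.409% and 2.32% and 0.894% and 5.17% of UMIs. Removing a hepatocyte profile scaled to these transcripts moved the log2 ratio of Atp5g1 to Atp5g2 in lymphocyte-like cells from -0.83 to -0.91 in Hep-ADKWT and from -0.46 to -0.96 in Hep-ADKTg, so the libraries were closer after it than before. The cause of the difference in Atp5g1 share was not tested.

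Upstream sequence of Atp5g1 and Atp5g2 (RefSeq promoter table, GRCm38.p6) is shown because these genes led subunit c in different classes. Of the 84 members, 67 had an entry there. Cox6a2 and Uqcrq were not matched. The Atp5g1 stretch lies 250 to 40 bases before the RefSeq start (chr11:96075671-96075881, minus strand, outside annotated exons), and capitals mark CCAAT on either strand. The Atp5g2 site of 30 bases lies 52 to 23 bases before the start (chr15:102671070-102671099, minus strand, inside an exon of another annotated Atp5g2 transcript), and capitals mark GCATGCGC on either strand, the core of the sequence known to be bound by nuclear respiratory factor NRF1.

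Atp5g1: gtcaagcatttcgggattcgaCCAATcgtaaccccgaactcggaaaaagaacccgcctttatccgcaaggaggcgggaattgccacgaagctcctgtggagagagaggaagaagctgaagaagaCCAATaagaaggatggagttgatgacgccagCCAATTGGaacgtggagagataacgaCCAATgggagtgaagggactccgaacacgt
Atp5g2: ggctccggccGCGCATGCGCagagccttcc

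In the 250 bases before the start, Atp5g1 had 5 matches to CCAAT, 2 of them overlapping on opposite strands, and none to GCATGCGC. Atp5g2 had 2 matches to GCATGCGC, overlapping on opposite strands, and no CCAAT. The CCAAT letters were found in 31 of 72 windows of members (43.1%) and in 33.8% of all 32851 windows, and 3 or more matches in 2.79% of all windows. GCATGCGC was found in 8 windows of members (11.1%) and in 2.26% of all. CCGGAAG, the core recognised by ETS factors such as GABP, was found in 12 windows of members (16.7%) and 6.91% of all, and AAGATGGC, a YY1 core, in 1 (1.39%) and 1.56%. A match describes these letters only.

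Cox6a2 (chr7:128205435-128206387, minus strand), the heart and skeletal muscle isoform of complex IV subunit 6A, was found almost only in pDC-like cells. It reached 1002 CPM (973 to 1033) and 1473 CPM (1403 to 1547) there, from 4293 and 1625 UMIs. Its ubiquitous paralogue Cox6a1 (chr5:115345642-115348981, minus strand) was at 254 and 316 CPM in the same cells and between 213 and 459.7 CPM in the other named classes apart from erythroid-like cells. In no other class with at least 50 cells per library did Cox6a2 exceed 15.4 CPM. Cells with at least 1 Cox6a2 UMI made up 88.2% and 90.4% of pDC-like cells, at median depths of 9861 and 7514 UMIs, and 0.615% and 0.224% of lymphocyte-like cells, at 5547 and 4208. After thinning each cell to 1000 UMIs, with 2 and 0 shallower pDC-like cells and 73 and 130 lymphocyte-like cells left out, the shares were 56.1% and 67.1% in pDC-like and 0.0669% and 0.0784% in lymphocyte-like cells.

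Cox6a2 was 1 of 29 of the 8038 features tested in pDC-like cells (0.361%) that were at least 10-fold above the highest other class in both libraries. That group held the pDC markers Siglech (2732 and 2709 CPM) and Ccr9, and, named after their values were seen, other genes known from muscle: Atp2a1, the calcium pump of the sarcoplasmic reticulum (145 and 136 CPM), and Pgam2, the muscle phosphoglycerate mutase (45.8 and 226 CPM). Among the other classes, Cox6a2 UMIs came with more Siglech UMIs in monocyte-like cells (65 against 227 in Hep-ADKWT, and 27 against 48 in Hep-ADKTg). In plasma-cell-like cells 107 came with 172 in Hep-ADKWT, but 13 with 0 in Hep-ADKTg, where Cox6a2 was at 10.6 CPM. In lymphocyte-like cells Cox6a2 UMIs outnumbered those of Siglech (37 against 21, and 14 against 6), at 1.31 and 1.16 CPM. In pDC-like cells (398 and 146 cells) its level was higher in Hep-ADKTg by a log2 ratio of 0.56 [0.47 to 0.64].

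**Figure D3:**
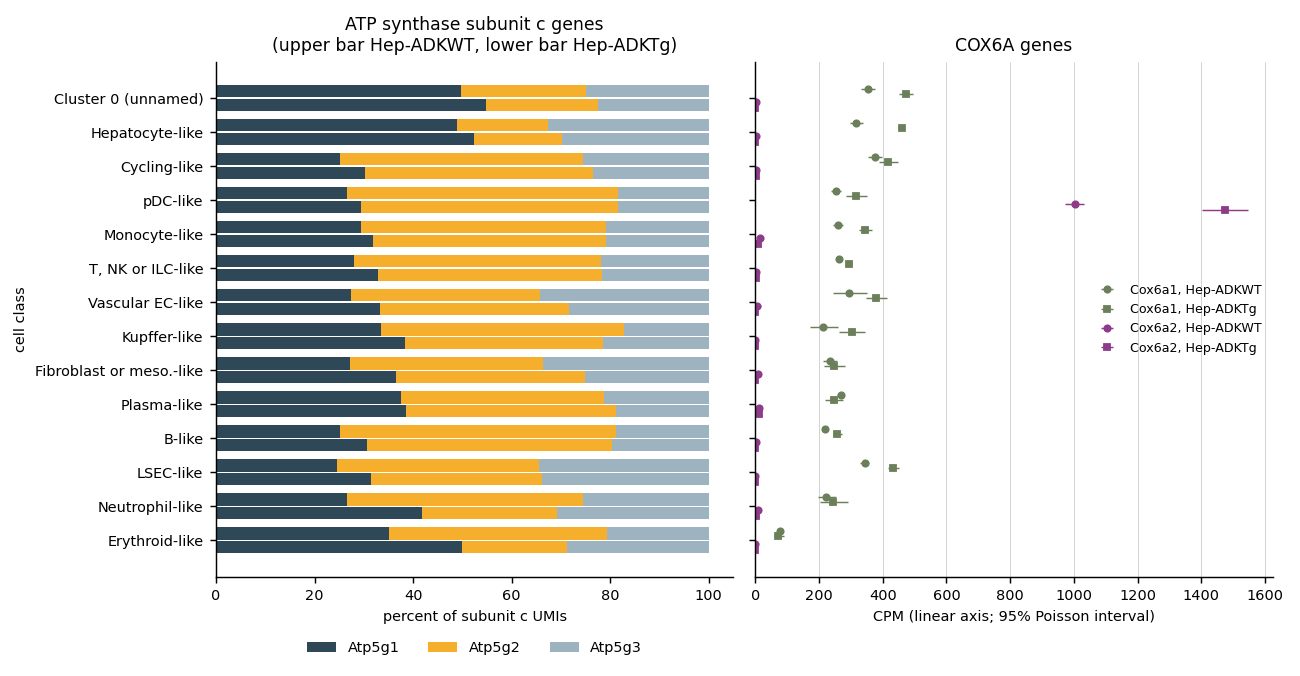
Left, shares of subunit c UMIs (x axis, percent) from Atp5g1, Atp5g2 and Atp5g3 in 14 cell classes (y axis), with the upper bar of each pair for Hep-ADKWT. Right, levels of Cox6a1 and Cox6a2 (x axis, CPM, linear) in the same classes with 95% Poisson intervals: Cox6a2 lies far above 0 in pDC-like cells only, at 1002 and 1473 CPM.

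The other tissue-restricted paralogues were close to the limit of detection. Cox7a1, the muscle form of the subunit that Cox7a2 encodes elsewhere, was highest in cholangiocyte-like cells at 36.9 CPM (22.5 to 57.00) and 69.5 CPM (54.7 to 87.2), from 20 and 75 UMIs in only 35 and 99 cells. It was at 10.3 and 7.26 CPM in hepatocyte-like cells and 7.43 and 7.54 in cluster 0. Cox6b2, the testis form of subunit 6B, was seen in fibroblast or mesothelial-like (28.6 and 37.4 CPM), cholangiocyte-like (27.7 and 28.7), monocyte-like (17.7 and 12.7) and erythroid-like cells (14.7 and 7.58), against 333 and 360.2 CPM for Cox6b1 in fibroblast or mesothelial-like cells. Cox4i2, the lung isoform of subunit 4, had 67 UMIs in all, 48 of them in plasma-cell-like cells of Hep-ADKWT (16 of 312 cells, with 13 UMIs in 1 cell) and 1 in those of Hep-ADKTg. Ndufa4l2, a hypoxia-responsive relative of Ndufa4, had 139 UMIs, 4 and 63 in hepatocyte-like and 1 and 15 in fibroblast or mesothelial-like cells. Cox8b, a muscle form of subunit 8, had 13 UMIs, and Cox7b2 and Cox8c had 0, which allows a level of up to 0.0370 and 0.0387 CPM over kept cells (3 UMIs per library, counting error only). In hepatocyte-like cells their common counterparts were at 504 and 619.6 CPM for Cox7b and 945 and 1034 for Cox8a.

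Between genotypes, members were more often higher than lower in Hep-ADKTg in all 12 classes with at least 75 cells per library, by amounts that were mostly small. Levels are shares of class totals. With edgeR's TMM factors in place of totals, 48.1% to 50.5% of all features were higher in Hep-ADKTg in each class, and members higher ran from 60 of 77 in cluster 0 to 76 of 76 in B-cell-like cells. In hepatocyte-like cells, the class the albumin promoter is active in, 70 of 78 members with at least 50 UMIs were higher in Hep-ADKTg, against 46.2% of all features, with a median log2 ratio of 0.20 against -0.029, and 1, Ndufa4l2, was at least 1.5-fold higher (6.26% of features), from 4 and 63 UMIs. By complex the medians were 0.23 for I, 0.00271 for II, 0.16 for III, 0.23 for IV and 0.13 for V. Among members with at least 200 UMIs, from which the highest and lowest of each class are named here and below, the highest ratios were those of Ndufb11, an accessory subunit of complex I (232 and 346 CPM, log2 ratio 0.58 [0.47 to 0.69]), Cox6a1 (317 and 459.7 CPM, 0.54 [0.45 to 0.63]) and Ndufv3 (305 and 434 CPM, 0.51 [0.42 to 0.60]). The lowest were those of Cox7a1 (34 and 251 UMIs, -0.50 [-1.02 to 0.060]), Sdhd (-0.10 [-0.27 to 0.066]) and Ndufs1 (-0.10 [-0.32 to 0.13]), whose intervals included 0. Of the hepatocyte transcripts 13 of 30 were higher here (median -0.037). The class held 181 and 3616 cells, of which 99 and 2567 were from the shallow cluster 1. That cluster gave only 80602 and 1971853 UMIs, against 2911122 and 27432141 from the deep cluster 9. Within cluster 9 alone (70 and 826 cells) 69 of 78 members were higher, with a median of 0.21. With cells limited to at most 10% mitochondrial UMIs the count was 60 and the median 0.14.

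Other mitochondrial genes of hepatocyte-like cells did not all share this direction; the counts below stand beside 46.2% of all features higher and a median of -0.029. Of the 13 mitochondrially encoded subunits 3 were higher in Hep-ADKTg (median -0.21, 15.1% and 13.05% of UMIs). Mitochondrial ribosomal protein genes resembled the members in direction, with 69 of 78 higher and a median of 0.18. Assembly factors had 31 of 44 higher (median 0.13) and the electron carriers and subunits outside the naming rule, such as Cycs and Cyc1, 6 of 9 (median 0.12). Enzymes of the tricarboxylic acid cycle had 2 of 13 higher (median -0.10), the adenine nucleotide, phosphate and outer membrane carriers 1 of 6 (median -0.13), and the regulators of mitochondrial biogenesis, such as Ppargc1a and Tfam, 6 of 11 (median 0.027), near the share of all features. Cytosolic ribosomal protein genes had 27 of 82 higher (median -0.048).

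Among lymphoid and endothelial classes the members were higher in Hep-ADKTg together with hepatocyte transcripts. In lymphocyte-like cells 71 of 77 members were higher, against 35.5% of all features, with a median log2 ratio of 0.11 (-0.093 for all features). In B-cell-like cells 70 of 76 were higher against 30.8% (median 0.20, all features -0.15), and in LSEC-like cells 73 of 76 against 32.8% (median 0.28, all features -0.12). Uqcrq led in all 3: 247 CPM (241 to 253) and 393 CPM (381 to 404) in lymphocyte-like cells (log2 ratio 0.67 [0.62 to 0.72]), 181 and 341 CPM in B-cell-like (0.91 [0.82 to 1.01]) and 276 and 477 CPM in LSEC-like cells (0.79 [0.71 to 0.87]). Uqcr11 (0.44 [0.38 to 0.51]) and Atp5g1 (0.41 [0.35 to 0.46]) came next in lymphocyte-like cells, Uqcr11 and the NADH-binding core subunit Ndufv1 in B-cell-like, and Ndufa13 and Atp5g1 in LSEC-like cells. Apart from Cox7a1, Uqcrq, Uqcr11 and Atp5g1 were also the members with the highest ratios of hepatocyte-like to lymphocyte-like levels in both libraries. At the other end were Ndufs1 (-0.15 [-0.33 to 0.027]), Uqcrc2 and Ndufa9 in lymphocyte-like, Ndufs8, Sdha and Ndufa3 in B-cell-like, and Ndufa8 (-0.35 [-0.47 to -0.24]), Ndufs1 and Atp5g2 in LSEC-like cells. All 30 hepatocyte transcripts were higher in Hep-ADKTg in each of the 3 classes, by median log2 ratios of 2.62, 2.32 and 2.58, and the mitochondrially encoded subunits had medians of -0.25, -0.21 and -0.011. The libraries differed in genotype and in hepatocyte transcript share at once. With 1 library per genotype these cannot be told apart, and the part of each was not tested.

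**Figure D4:**
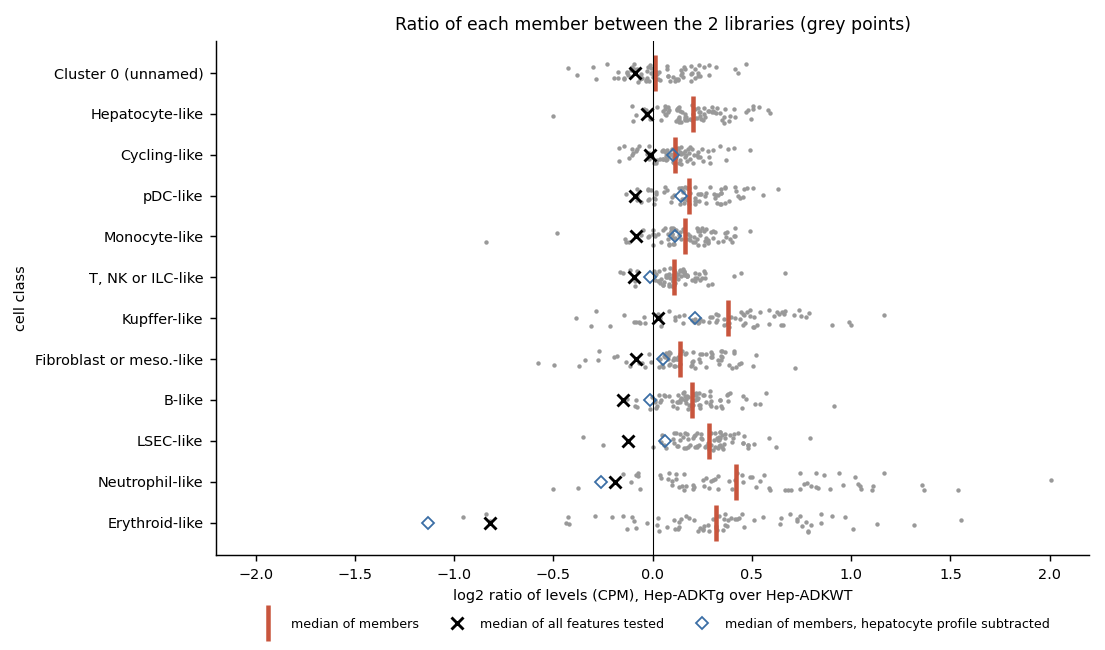
Log2 ratios of member levels between the libraries (x axis, Hep-ADKTg over Hep-ADKWT) in 12 cell classes (y axis): each grey point is 1 member with at least 50 UMIs, red bars are medians of members, crosses medians of all features tested, and open diamonds medians of members after a hepatocyte profile was subtracted. Red bars lie right of the crosses in every class, and the diamonds lie near 0 in lymphocyte-like, B-cell-like and LSEC-like cells.

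Clusters 2, 4, 5 and 10 held like shares of hepatocyte transcripts in both libraries. In them members were slightly more often lower than higher in Hep-ADKTg, and all features were near an even split. The hepatocyte-like cluster 9, at 24.8% and 25.6%, also held like shares, and most of its members were higher, as given above. The lymphocyte-like cluster 2, with 218 and 1704 cells, held hepatocyte transcripts at 2.60% and 2.93% and members at 2.16% and 2.15% of UMIs, and 33 of 76 members were higher in Hep-ADKTg (median -0.016, 48.5% of all features higher). The lymphocyte-like cluster 10 had members at 1.81% and 1.79% (33 of 76 higher, 55% of all features), the B-cell-like cluster 5 at 1.79% and 1.76% (29 of 76 higher, 45.6% of features), and the LSEC-like cluster 4 at 1.80% and 1.78% (35 of 76 higher, 52.4% of features). In these 4 clusters the hepatocyte share of the 2 libraries differed by less than 0.4 percentage points, and the member medians lay between -0.061 and -0.015. Only lymphocyte-like, B-cell-like and LSEC-like clusters with at least 50 cells in each library were set out this way. In the other 4 of them the hepatocyte share was lower in Hep-ADKWT by more than 1 percentage point. Other classes with such a difference, such as pDC-like and monocyte-like cells, are given below. Members were higher in Hep-ADKTg more often in these 4. The counts were 65 of 76 in the lymphocyte-like cluster 15 (median 0.26, 42.8% of features, hepatocyte transcripts 0.379% and 2.57%) and 51 of 75 in the lymphocyte-like cluster 26 (median 0.10, 42.6% of features). They were 47 of 76 in the LSEC-like cluster 8 (median 0.12, 38.2% of features) and 46 of 76 in the B-cell-like cluster 22 (median 0.036, 35.5% of features). Hepatocyte genes took part in the clustering, so the Hep-ADKWT cells of clusters 2, 4, 5 and 10 are those of that library with more of these transcripts.

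**Figure D5:**
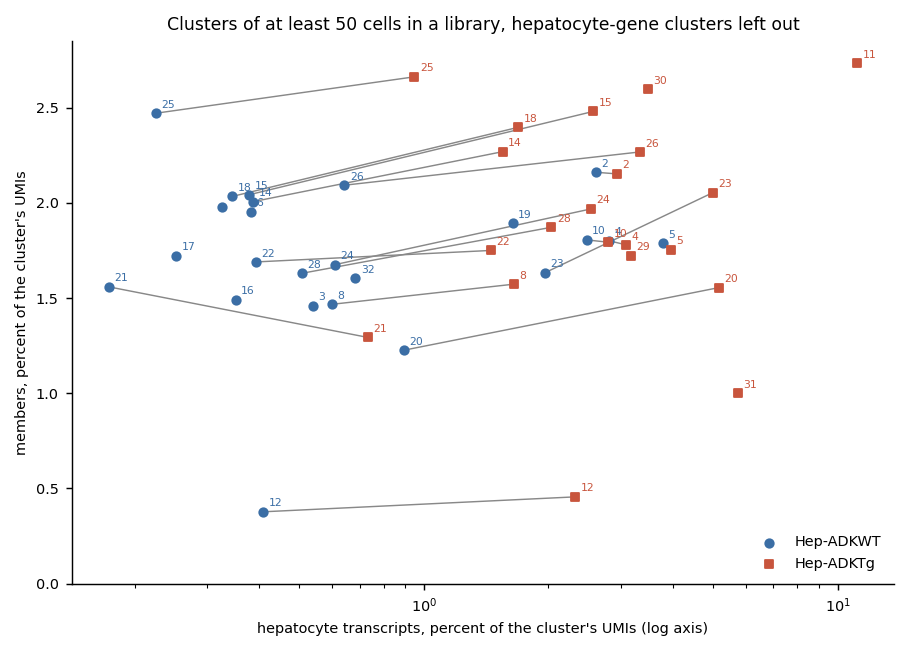
Share of UMIs from members (y axis, percent) against the share from 30 hepatocyte transcripts (x axis, percent, log scale) in clusters with at least 50 cells in a library, numbered, for Hep-ADKWT (blue circles) and Hep-ADKTg (red squares), with hepatocyte-gene clusters 0, 1, 9, 13 and 27 left out and lines joining the same cluster in both libraries. Clusters 2, 4, 5 and 10, whose points lie side by side on the x axis, have nearly the same member share in both libraries.

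Subtracting from each class a hepatocyte-like profile of its own library, scaled so that the 30 transcripts were removed, left 36 of 77 members higher in lymphocyte-like cells (median -0.012). After the same subtraction 36.7% of all features were higher there (median -0.076), without features left at 0 in both libraries. In B-cell-like cells 33 of 76 members (median -0.013) and 31.3% of features (median -0.12) were higher, and in LSEC-like cells 53 of 76 members (median 0.062) and 43% of features (median -0.040). The log2 ratio of Uqcrq became -0.013 in lymphocyte-like, -0.24 in B-cell-like and 0.056 in LSEC-like cells. With the profile of cluster 0 in its place, a choice made after seeing the data, the medians were -0.59, -1.09 and -1.01.

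Myeloid classes, pDC-like, cycling-like and fibroblast or mesothelial-like cells also had members higher in Hep-ADKTg, and in pDC-like, monocyte-like and cycling-like cells most of the difference was left after that subtraction. In pDC-like cells 67 of 77 members were higher (38.8% of all features) with a median of 0.18, and after subtraction 64 of 77 with 0.14 (41.7% of features, median -0.070). In monocyte-like cells these were 69 of 78 (39% of features, median 0.16) and, after subtraction, 62 of 78 (median 0.11, features 40.2% and -0.074). In cycling-like cells they were 60 of 76 (48.3% of features, median 0.11) and 58 of 76 (median 0.10, features 49.6% and -0.0039), and in fibroblast or mesothelial-like cells 62 of 77 (41.1% of features, median 0.14) and 51 of 77 (median 0.051, features 44.6% and -0.053). Kupffer-like cells, with 94 and 208 cells, had 63 of 74 higher (52.3% of features, median 0.38), 19 of them at least 1.5-fold (14.6%), and 55 of 74 after subtraction (median 0.21, features 58.7% and 0.10). In this class 7 Kupffer markers were enriched, but only C1qa, C1qb and C1qc of them were among its leading genes. Cx3cr1 and Csf1r, from the monocyte list, were also among these genes. With the cluster 0 profile the medians were -0.042 in pDC-like, -0.054 in monocyte-like, 0.044 in cycling-like and -0.23 in fibroblast or mesothelial-like cells, so the direction left in pDC-like and monocyte-like cells depended on the profile.

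The named members of these classes were mixed. Uqcrfs1, Cox6a2 and Uqcrq led in pDC-like cells (0.63 [0.37 to 0.89], 0.56 [0.47 to 0.64] and 0.50 [0.34 to 0.66]). In monocyte-like cells Ndufc1 (137 and 193 CPM, 0.49 [0.32 to 0.66]), Cox6a1 and Uqcrb led, in cycling-like cells Atp5g1 (0.49 [0.35 to 0.63]), Uqcrq and Ndufa7, and in fibroblast or mesothelial-like cells Ndufs4 (0.71 [0.34 to 1.08]), Atp5g1 and Uqcrb. In Kupffer-like cells Uqcrq was at 206 and 463 CPM (1.17 [0.83 to 1.51], 0.60 after subtraction), followed by Atp5k and Ndufb7. The lowest ratios were those of Uqcrc2, Uqcrc1 and Ndufs7 in pDC-like, of Sdhc, Ndufa9 and Sdha in monocyte-like, of Ndufv1, Sdhc and Ndufa13 in cycling-like and included those of Sdhc and Atp5g3 (-0.34 [-0.59 to -0.10]) in fibroblast or mesothelial-like cells. In Kupffer-like cells they were those of Cox7a2l (-0.39 [-0.68 to -0.088]), Atp5f1 and Uqcrh. Apart from Ndufa13 in cycling-like cells (-0.15 [-0.28 to -0.0063]), Atp5g3 in fibroblast or mesothelial-like cells, and Cox7a2l and Uqcrh in Kupffer-like cells, the intervals of these lowest ratios included 0.

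Neutrophil-like and erythroid-like cells, the classes with the lowest member levels, had the widest spread of ratios. After the subtraction most of their members, like most of all features, were lower in Hep-ADKTg. In neutrophil-like cells 64 of 72 members were higher (32.6% of all features), 28 at least 1.5-fold (9.93%), with a median of 0.42. Uqcrq (249 and 514 CPM, 1.05 [0.80 to 1.29]), Ndufa4 (1.02 [0.71 to 1.32]) and Cox7b (0.94 [0.57 to 1.31]) led, and Atp5l, Ndufa2 and Ndufa7 had the lowest ratios, with intervals that included 0. In erythroid-like cells 58 of 72 were higher (24% of features), 19 at least 1.5-fold (15.2%), with a median of 0.32 against -0.82 for all features. Uqcrq (66.3 and 165 CPM, 1.32 [1.04 to 1.59]), Uqcr11 and Cox5b led, and Cox7a2l (57.2 and 32.02 CPM, -0.84 [-1.38 to -0.34]), Atp5g2 (-0.82 [-1.31 to -0.36]) and Cox8a (-0.42 [-0.70 to -0.16]) were lower. After subtraction 22 of 72 members were higher in neutrophil-like cells (median -0.26), against 37.2% of all features (median -0.13). In erythroid-like cells 2 of 72 were higher (median -1.13), against 8.66% of features (median -1.76).

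Cluster 0 had the smallest median between genotypes: 44 of 77 members were higher (40% of all features), with a median of 0.013, and none passed 1.5-fold in either direction (7.95% of features did so upward). Ndufa1 (0.47 [0.34 to 0.59]), Ndufa13 (0.43 [0.32 to 0.54]) and Cox6a1 (0.41 [0.30 to 0.52]) led, and Cox7a2l (-0.43 [-0.56 to -0.29]), Sdhd (-0.38 [-0.55 to -0.22]) and Ndufv1 (-0.30 [-0.45 to -0.15]) were lowest. Across the 12 classes 24 of the 70 members tested in every class were higher in Hep-ADKTg in all 12. Among them were Uqcrq, with a median log2 ratio over classes of 0.59 and a range from 0.12 to 1.32, and Atp5g1, with a median of 0.47 and a range from 0.23 to 1.54. Cox7a2l was lower in 9 of 12, with a median of -0.075. Classes share their libraries, so these counts are not independent of each other. The same counts over all features are not given here, so these are not read as particular to the members.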

How the data were processed

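UMI counts per gene and cell were deposited as 10x matrices, 1 per library. Per the submitters' processing notes the authors used Cell Ranger 6.1.2, R 4.1.0 and Seurat 4.0.2 on GRCm38 (mm10), while the matrix headers name Cell Ranger 5.0.1. The series text names ambient RNA removal, but the deposited counts are whole numbers for every barcode the text gives as retained, and no source used here says whether that step was applied to them. Barcodes below 500 UMIs or 200 genes or above 20% mitochondrial UMIs were dropped (1418 and 2604 for the last), and 483 and 408 with a Scrublet score above 0.2 were removed, since the automatic threshold marked 0 and 1. Cells of both libraries were clustered together without integration (scanpy 1.11.5, 2000 variable genes without the members and mitochondrially encoded genes, 30 components, 15 neighbours, Leiden at resolution 1.0 with leidenalg 0.10.2), and clusters were named from marker lists. Clusters 0, 13, 29, 31 and 35 stayed unnamed under that rule. Counts were summed per class and library and divided by the class total (CPM). Intervals are 95%: exact Poisson for CPM, Clopper-Pearson for shares and exact conditional binomial for ratios, computed with scipy 1.17.1. Ratios used genes with at least 50 UMIs in the class over both libraries, comparisons of genotypes classes with at least 75 cells and levels classes with at least 50 cells in each library. The log2 ratio has no pseudocount. The scripts were tested on simulated data. Alternatives were TMM factors (edgeR 4.0.16) and DESeq2 1.42.0 size factors on R 4.3.3, other totals, count floors, mitochondrial limits, doublets, resolutions, thinning, means over cells and removal of hepatocyte-derived counts; no count test was run, as there was 1 library per genotype. Gene positions are from GENCODE M21. Genes named are all paralogues listed, the highest and lowest member of each complex, and in each class the 3 highest and 3 lowest Hep-ADKTg to Hep-ADKWT ratios among members with at least 200 UMIs, and the others were named after their values were seen; 1 member that this rule selects is not reported here. The members, marker lists and gene lists were chosen with earlier results of these data known.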

Additional observations from a re-analysis of the deposited data

How the results depend on the processing

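There were no replicates, so no library could be left out. No paired analysis was possible because each genotype had 1 library. TMM factors moved the median log2 ratio of all features by 0.14 in B-cell-like cells, 0.12 in LSEC-like, 0.18 in neutrophil-like and 0.75 in erythroid-like cells. DESeq2 size factors moved it by 0.15, 0.12, 0.19 and 0.82. In the other 8 classes both moved it by less than 0.1. The members moved by the same amounts, and their medians were above 0 in all 12 classes under both scalings. The median log2 ratio of the members moved outside the 95% interval of its main value (order statistics over members) as follows. With TMM factors it was 0.34 in B-cell-like, 0.10 in cluster 0, 1.07 in erythroid-like, 0.22 in fibroblast or mesothelial-like, 0.40 in LSEC-like, 0.25 in monocyte-like, 0.60 in neutrophil-like, 0.19 in lymphocyte-like and 0.27 in pDC-like cells. With DESeq2 size factors it was 0.35 in B-cell-like, 0.10 in cluster 0, 1.13 in erythroid-like, 0.22 in fibroblast or mesothelial-like, 0.41 in LSEC-like, 0.25 in monocyte-like, 0.61 in neutrophil-like, 0.20 in lymphocyte-like and 0.27 in pDC-like cells. With a floor of 200 UMIs it was 0.26 in neutrophil-like cells. With at most 10% mitochondrial UMIs it was 0.14 in hepatocyte-like cells. Without the cells above the median hepatocyte share of their class it was 0.29 in hepatocyte-like, 0.20 in Kupffer-like, 0.12 in LSEC-like and 0.090 in monocyte-like cells. With the cluster 0 profile subtracted it was -1.09 in B-cell-like, 0.044 in cycling-like, -0.23 in fibroblast or mesothelial-like, -1.01 in LSEC-like, -0.054 in monocyte-like, -0.59 in lymphocyte-like and -0.042 in pDC-like cells. With the hepatocyte-like profile subtracted it was -0.013 in B-cell-like, -1.13 in erythroid-like, 0.051 in fibroblast or mesothelial-like, 0.21 in Kupffer-like, 0.062 in LSEC-like, -0.26 in neutrophil-like, -0.012 in lymphocyte-like and 0.14 in pDC-like cells. With means over cells it was 0.064 in cycling-like, 0.82 in erythroid-like, 0.30 in hepatocyte-like and 0.55 in Kupffer-like cells. With members allowed in the clustering it was 0.21 in erythroid-like cells. At resolution 0.5 it was 0.21 in fibroblast or mesothelial-like cells. At resolution 2.0 it was 0.19 in LSEC-like cells. With cells thinned to 1000 UMIs it was 0.38 in erythroid-like, 0.053 in fibroblast or mesothelial-like, 0.32 in hepatocyte-like, 0.51 in Kupffer-like and 0.25 in pDC-like cells. With totals without cytosolic ribosomal protein genes it was -0.021 in cluster 0. With totals without mitochondrial, haemoglobin, immunoglobulin and hepatocyte genes it was 0.82 in erythroid-like cells. Within single clusters, chosen after seeing the data, the median was -0.061 in cluster 5, 0.036 in cluster 22, -0.015 in cluster 4, 0.12 in cluster 8, -0.016 in cluster 2, -0.048 in cluster 10 and 0.26 in cluster 15. The count of members higher in Hep-ADKTg moved by over 1.5 times as follows. With a floor of 200 UMIs it was 31 in erythroid-like, 38 in Kupffer-like and 33 in neutrophil-like cells. With the cluster 0 profile subtracted it was 0 in B-cell-like, 14 in fibroblast or mesothelial-like, 4 in LSEC-like, 30 in monocyte-like, 0 in lymphocyte-like and 32 in pDC-like cells. With the hepatocyte-like profile subtracted it was 33 in B-cell-like, 2 in erythroid-like, 22 in neutrophil-like and 36 in lymphocyte-like cells. With cells thinned to 1000 UMIs it was 31 in cycling-like, 16 in erythroid-like, 25 in fibroblast or mesothelial-like, 31 in Kupffer-like and 31 in neutrophil-like cells. Within single clusters the count was 29 in cluster 5, 46 in cluster 22, 35 in cluster 4, 47 in cluster 8, 33 in cluster 2 and 33 in cluster 10. In each complex, 12 named classes lay below hepatocyte-like cells in both libraries. Without the cells above the median hepatocyte share it was 4, since only these classes kept enough cells, and no other alternative moved it by over 1.5 times. Ratios of isoforms kept their direction. For Atp5g1 over Atp5g2 in hepatocyte-like cells of Hep-ADKTg the log2 ratio was 1.56, and 1.44 with at most 10% mitochondrial UMIs and 1.33 without the cells above the median hepatocyte share of their class. For Atp5g1 over Atp5g2 in hepatocyte-like cells of Hep-ADKWT the log2 ratio was 1.40, and 1.12 with at most 10% mitochondrial UMIs, 1.98 with cells thinned to 1000 UMIs and 1.14 without the cells above the median hepatocyte share of their class. For Atp5g1 over Atp5g2 in lymphocyte-like cells of Hep-ADKTg the log2 ratio was -0.46, and -0.96 with the hepatocyte-like profile subtracted. For Atp5g1 over Atp5g2 in lymphocyte-like cells of Hep-ADKWT the log2 ratio was -0.83, and -0.91 with the hepatocyte-like profile subtracted. For Cox6a2 over Cox6a1 in pDC-like cells of Hep-ADKTg the log2 ratio was 2.22, and 2.72 with cells thinned to 1000 UMIs. For Cox6a2 over Cox6a1 in pDC-like cells of Hep-ADKWT the log2 ratio was 1.98, and 1.87 with doublets kept, 2.09 with cells thinned to 1000 UMIs and 1.83 without the cells above the median hepatocyte share of their class. Subtraction of the cluster 0 profile, added after seeing the data, gave no value in erythroid-like, Kupffer-like and neutrophil-like cells. Medians that changed sign did so under subtraction of a profile or within a single cluster, apart from cluster 0, whose median near 0 went below it with totals without cytosolic ribosomal protein genes, also added after seeing the data. The cause of these moves was not tested. The low counts of Cox7a1, Cox6b2, Cox4i2 and Ndufa4l2, the few Hep-ADKWT hepatocyte-like and Kupffer-like cells and the single library of each genotype limit what these values can show.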

Other observations

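Within the lymphocyte-like class the clusters differed in member share. In Hep-ADKWT cluster 16 gave 1.49% of its UMIs to members, cluster 17 1.72%, cluster 6 1.95% and cluster 7 1.98%. Clusters 15 and 26 gave 2.04% and 2.48%, and 2.09% and 2.27%. Their hepatocyte transcript shares in Hep-ADKWT were 0.351%, 0.252%, 0.382%, 0.325%, 0.379% and 0.643% in that order. Clusters 2 and 10 gave 2.16% and 1.81% of their UMIs to members in Hep-ADKWT, and held 2.60% and 2.47% of hepatocyte transcripts.

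Mitochondrial gene lists in lymphocyte-like cells stood beside 35.5% of all features higher in Hep-ADKTg and a median of -0.093. Mitochondrial ribosomal protein genes were higher in Hep-ADKTg in 54 of 78 cases (median 0.048), assembly factors in 16 of 44 (median -0.037), and enzymes of the tricarboxylic acid cycle in 6 of 13 (median -0.0094). The assembly factors were at the share of all features. Of the mitochondrially encoded subunits 1 of 13 were higher in pDC-like cells (median -0.17, 38.8% of all features) and 12 of 13 in cluster 0 (median 0.32, 40% of features). Ndufa4 was at 742 and 425 CPM in plasma-cell-like cells, which were too few in Hep-ADKTg (55 cells) for the comparison of genotypes.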
